A study of Danio rerio with 12 samples.

Results

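The comparison of subjective night with subjective day in the zebrafish pineal gland took in all 12 arrays of the series, 6 labelled CT14, CT18 or CT22 and 6 labelled CT2, CT6 or CT10. Each array held the RNA of 12 pooled pineal glands. They came from adult fish of both sexes of the line Tg(aanat2:EGFP)Y8, 0.5 to 1.5 years old. In this line the promoter of aanat2 drives EGFP in the pineal gland, so that the gland can be dissected by its fluorescence. Night and day arrays shared genotype, age and condition: the fish had been raised in cycles of 12 h light and 12 h dark, and glands were collected every 4 h over 48 h of constant darkness. Subjective night and subjective day are thus the parts of the daily cycle in which it would have been dark or light, and by the labels the groups differed in time only. The 3 night times and the 3 day times each had 2 arrays, 1 from the first daily cycle and 1 from the second, and the arrays of a group were therefore samples of different times and not repeats of 1 condition. The question was which transcripts were at a different level in the 2 parts of the cycle. Of 15502 probe sets on the array, 11625 were tested, 8292 of them with 1 gene symbol, which stood for 7270 genes.

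The zebrafish pineal gland is photoreceptive and holds its own circadian clock, which drives the nightly synthesis of melatonin. In the core of this clock, activators of the CLOCK and BMAL families switch on genes with an E-box in their promoter, among them period and cryptochrome genes, and the period proteins and several of the cryptochromes repress the activators in turn. Accessory loops act through the D-box, which the activators of the DBP and TEF family and the repressor NFIL3 bind, and through the element of the ROR activators and the REV-ERB repressors. Genes of these loops are known to reach their peaks at different times of the cycle, and a transcript with its peak at the border of night and day can cycle strongly and have the same mean in both.

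The deposited values had been scaled array by array, and no detection calls were used here, so that it is unknown which dim probe sets were above background, and low intensities are less certain than high ones. After quantile normalization, log2 intensities of different arrays correlated with r from 0.829 to 0.934. The mean r was 0.911 among the night arrays, 0.885 among the day arrays and 0.898 between them. Hybridization controls were brighter on 4 arrays of the second cycle, those of CT22, CT2, CT6 and CT10, which were the last ones collected, with geometric means of 837 to 1314 against 515 to 728 on the other 8. These 4 held all day arrays of the second cycle but, of its night arrays, only that of CT22. In that cycle night and day thus differed in this as well, and its part was not tested. Markers of pineal photoreceptor cells were present on every array, with intensities of the pineal opsin gene exorh from 695 to 2203. The day array of CT6 in the second cycle stood apart. Relative to the mean of all arrays, its 31 skin markers were on average 2.34 log2 units higher, its 17 markers of bone and connective tissue 1.84 and its 15 immune cell markers 1.19, and its 12 pineal markers averaged -0.74. Skin markers were also high on the night arrays of CT14 and CT18 in the first cycle, at 1.34 and 1.29. Over all arrays the skin list ranged from -1.45 to 1.34 at night and from -1.37 to 2.34 in the day. The 16 brain neuron markers ranged from -0.68 to 0.86 at night and from -0.60 to 0.68 in the day. The part that these other tissues had in the differences was not tested. Some of the results that depend on the CT6 array are also given without it, but not all.

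**Figure D1:**
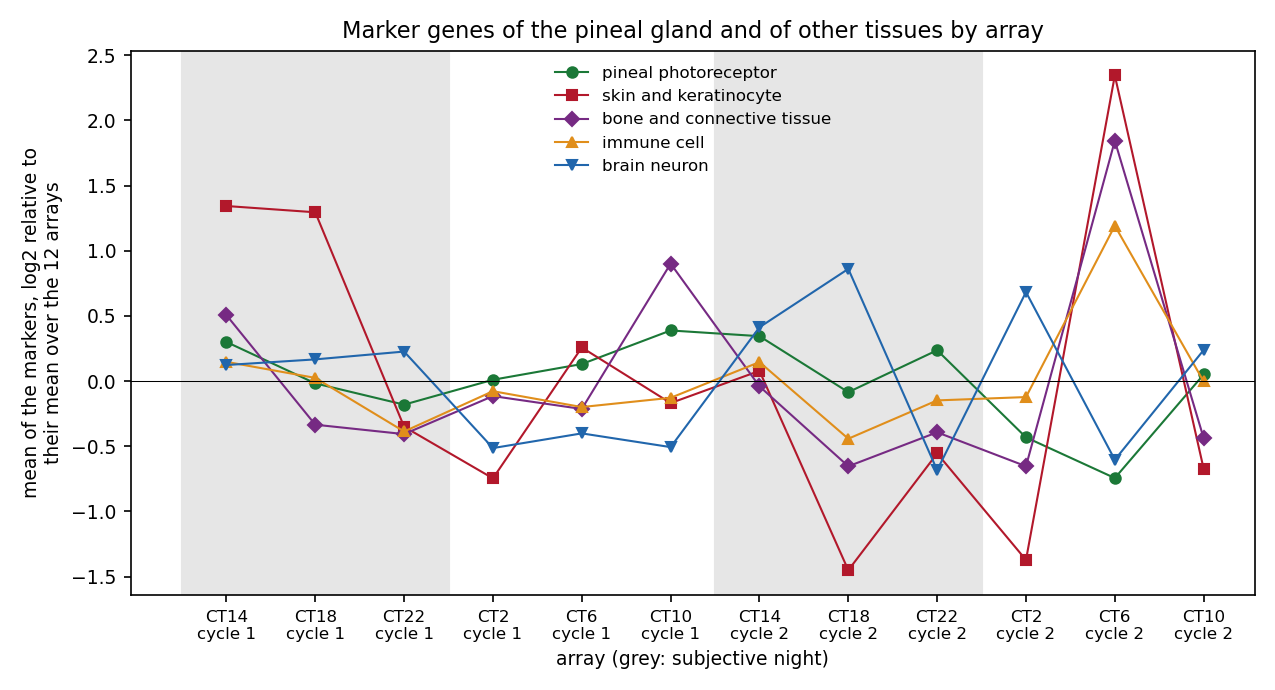
Mean log2 intensity of the marker genes of the pineal gland and of 4 other tissues on the 12 arrays, each list relative to its own mean over the arrays, with the subjective night shaded. Skin, bone and immune cell markers were highest on the CT6 array of the second cycle, at 2.34, 1.84 and 1.19, where the pineal markers were lowest, at -0.74.

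The night minus day differences that passed a test were few, and genes of the clock led them. In the comparison of the 6 night arrays with the 6 day arrays, no probe set passed limma at a false discovery rate of 0.05, in either direction (0% of 11625 each), and none passed at 0.10. The lowest adjusted p was 0.174, and 678 probe sets had an unadjusted p under 0.05, of which 364 were higher (3.13%) and 314 lower (2.70%) at night. That split moved with the scaling, to 300 higher and 396 lower without further normalization and to 466 higher and 217 lower with median centring. In this fit the changes from CT14 to CT18 and CT22, and from CT2 to CT6 and CT10, count as spread. When each circadian time had its own mean and the average of the night times was set against that of the day times, so that the spread was that between the 2 arrays of a time, 16 probe sets passed. Of these, 11 were higher at night (0.0946% of those tested) and 5 were lower (0.0430%). The 16 held 10 probe sets with 1 symbol, 3 that only the study's list of probe sets names and 3 without a name. That list holds the probe sets that the study called circadian on these same arrays. Probe sets named by it alone, such as dbpa and cry2a, thus have a name here only because of that call. They are not independent evidence of a daily change. All 16 failed the 2-group fit, in which no adjusted p from limma was under 0.174. Below, the standard error of a probe set that passed with time as a factor is that of that fit. All other standard errors, and adjusted p-values not tied to time as a factor, are those of the 2-group fit. The 2 kinds of standard error thus cannot be set against each other. The fit with time as a factor was kept as a result of its own after the 2-group fit had called nothing. Its counts depended on single arrays, with 3 to 26 higher and 0 to 12 lower when 1 array was left out in turn, the most higher without CT6 of the first cycle and the most lower without CT6 of the second. For 41 probe sets the night and day arrays did not overlap at all, 20 higher at night (0.172%) and 21 lower (0.181%). If arrays could be exchanged freely between the groups, a share of 0.00216 of probe sets would be free of overlap in 1 direction or the other. Some of the 41 could thus arise in that way, and freedom from overlap is a description and not a test of a gene. With 4 h added to the labels, 76 were free of overlap. Of those 41, 32 had 1 gene symbol. Only 2 probe sets, fbxo25 and 1 without a symbol, were both past the test with time as a factor and free of overlap. The genes described below include these probe sets, which were chosen after their values had been seen, beside those that the naming rule gave.

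The largest night-high difference of a named gene belonged to ciarta, whose product represses the CLOCK and BMAL activators. Its lowest, median and highest normalized intensities were 127, 593 and 1106 on the night arrays and 27.5, 64.1 and 179 on the day arrays. The night arrays of CT18 and CT22 were above all day arrays, and those of CT14 lay among the day arrays. The night minus day difference was 2.68 on the log2 scale (standard error 0.23, adjusted p = 0.0019 from limma with circadian time as a factor), a 6.42-fold difference. It was called without any 1 of the 12 arrays. In the 2-group fit the same difference had a standard error of 0.60 (adjusted p = 0.37 from limma).

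Among the cryptochrome genes, of which some in zebrafish encode repressors of the same activators, a probe set of cry2 was higher and 1 of cry2a lower at night. cry2, the gene that the study calls cry3, had 195, 289.8 and 496 at night and 125, 209 and 262 in the day on its brighter probe set, a difference of 0.63 that did not pass (adjusted p = 0.38 from limma with time as a factor). On its other probe set it had 119, 354 and 505 at night and 66.3, 106 and 197 in the day, and the difference of 1.40 passed (adjusted p = 0.028). It did not pass in 10 of the 12 fits that each left out 1 array. The probe set that the study's list names cry2a, with no symbol in the annotation, went the other way, with 837, 1149 and 3176 at night and 1844, 3359 and 6371 in the day. Its difference was -1.32 (standard error 0.18, adjusted p = 0.021 from limma with time as a factor), and failed in 7 of the 12 fits without 1 array. On both probe sets of cry2, CT18 was the highest time, whereas cry2a was highest at CT10. The other period and cryptochrome genes measured did not pass, with differences of 0.092 for per2, -0.15 for cry1a, 0.036 for cry1b and -0.60 for cry4, with standard errors of 0.25, 0.23, 0.40 and 0.40. Without the CT18 array of the first cycle cry4 differed by -0.31.

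Of the 6 activators tested, 4 had lower means at night and none passed. bmal1a had 11.7, 36.5 and 107 at night and 43.7, 139.6 and 200.1 in the day. Its CT18 arrays, at 11.7 and 14.6, were the lowest of the 12, and a day array, CT2 of the second cycle with 43.7, fell among the night arrays. The difference of -1.84 did not pass (standard error 0.55, unadjusted p = 0.0043, adjusted p = 0.67 from limma; 0.059 with time as a factor). bmal1b had 25.8, 46.4 and 66.0 at night and 61.0, 84.0 and 119 in the day, a difference of -0.98 with adjusted p = 0.50 in limma. In clocka, 14.1, 61.2 and 99.8 at night stood against 67.4, 108 and 155 in the day (difference -1.0, adjusted p = 0.85 from limma), and the difference was -0.62 without the CT18 array of the first cycle. bmal2 had a difference of -0.80 with a standard error of 0.53, and -0.34 without the CT18 array of the second cycle. clockb and npas2, relatives of clocka, had 0.13 and 0.084. Over the 6 activators the median difference was -0.889 and 3 had an unadjusted p under 0.05, all lower at night, against a median of -0.002 over the 7270 genes, of which 218 were higher and 200 lower at that p. Among the kinases and ubiquitin ligases that set the lifetime of PER and CRY proteins, fbxl3a, the F-box gene of the ligase for CRY, had 722, 1067 and 1469.8 at night and 1051, 1699 and 1944 in the day (difference -0.59, adjusted p = 0.85 from limma). csnk1db, a casein kinase gene, had 0.37 (standard error 0.20). In all, 19 of 27 core clock genes listed were tested. None passed the 2-group fit, and 2 were higher and 4 lower at an unadjusted p under 0.05.

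In the D-box loop a repressor was lower and an activator higher at night. nfil3-5, which encodes a D-box repressor, had 46.1, 157 and 609 at night and 285, 1829.7 and 3808 in the day. Only the CT14 night array of the second cycle, at 609, reached the range of the day arrays, whose lowest was CT2 of the first cycle. The difference of -3.02 was the largest of any named gene in either direction (standard error 0.38, adjusted p = 0.015 from limma with time as a factor), an 8.11-fold lower level at night. It failed to pass in 4 of the 12 fits without 1 array. Its paralog nfil3-6 differed by 0.17 (standard error 0.43), with its highest mean at CT22 and its lowest at CT14. dbpa, a D-box activator named by the study's list only, had 928, 1403 and 3067 at night and 220.4, 351 and 989.8 in the day. The groups overlapped through 1 array each, CT14 and CT2 of the second cycle at 928 and 989.8. The difference of 1.99 passed with time as a factor (standard error 0.19, adjusted p = 0.0023 from limma) and without any 1 array. tefa, a second activator of this family, had 669, 1047 and 1419 at night and 418, 659 and 985 in the day (difference 0.66, adjusted p = 0.85 from limma).

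In the loop of nuclear receptors, the ROR gene rorcb had the lowest unadjusted p of all probe sets. It had 14.1, 37.7 and 79.6 at night and 118, 175 and 524 in the day, so that every day array was above every night array, and CT6 of the first cycle was the brightest at 524. The difference was -2.60 (standard error 0.44, unadjusted p = 3.0e-05, adjusted p = 0.17 from limma; 0.072 with time as a factor), a 6.08-fold lower level at night. Intensities this low at night are near the dim end of the arrays. rorab had 123, 192 and 331 and 200.2, 279 and 375, a difference of -0.45 (standard error 0.24). nr1d2b, a REV-ERB gene whose product represses through the same element, went the other way, with 843, 1857 and 2145 at night and 244, 519.6 and 1808 in the day. The groups overlapped through the day arrays of CT2. The difference of 1.33 passed with time as a factor (standard error 0.21, adjusted p = 0.036 from limma), it failed in 10 of the 12 fits without 1 array, and a dimmer probe set of the gene differed by -0.14.

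Both bHLH repressors of the E-box swung widely over the cycle, but they separated night from day to unlike degrees. bhlhe41 had 327, 838 and 2092 at night and 64.7, 161 and 541 in the day, with both CT14 arrays below the CT2 array of the second cycle. Its difference was 2.17 (standard error 0.23, adjusted p = 0.0039 from limma with time as a factor), a 4.49-fold higher level at night, and it passed without any 1 array. bhlhe40 had 337, 3099 and 4434 and 124, 1782 and 3106. Its time means went from 168 at CT10 to 3760.2 at CT18, yet night and day differed by only 0.78. The standard error of 0.90 was that of the 2-group fit, which counts swings within night and within day as spread. Values were low at CT14 as at CT10 and high at CT2 as at CT18 and CT22. With 1 array left out the difference of bhlhe40 ranged from 0.20 without CT10 of the first cycle to 1.24 without CT14 of the first cycle. The difference between the 2 genes was not tested. Of the Id genes, whose products block bHLH factors, id2b had 483, 901 and 1854 at night and 930.1, 1589 and 2041 in the day (difference -0.69, unadjusted p = 0.055 from limma). In all, 15 of 29 listed genes of the accessory loops were tested. Of them 3 were higher and 2 lower at an unadjusted p under 0.05, and the median difference was 0.03. Over all 7270 genes, 218 were higher and 200 lower at that p.

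**Figure D2:**
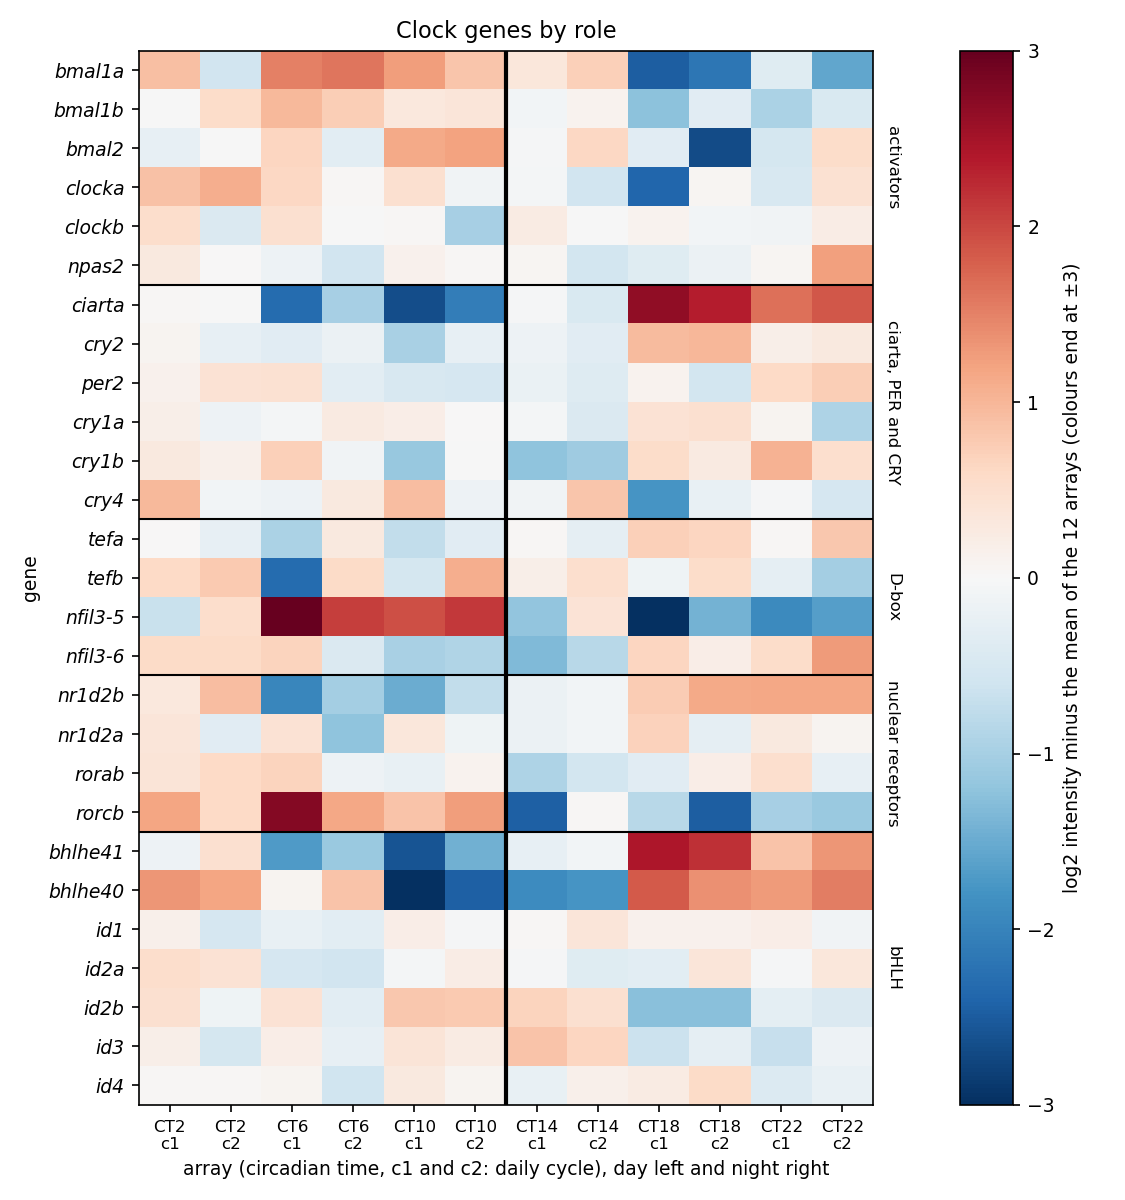
Log2 normalized intensity of 27 clock genes on the 12 arrays, each gene relative to its own mean, with day arrays left of the thick line and night arrays right of it and genes grouped by role. Colours end at 3 on either side. nfil3-5 and rorcb were low on night arrays, ciarta and bhlhe41 were high at CT18 and CT22, and bhlhe40 was low at CT10 and CT14, on either side of the line.

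Among 37 tested genes of a list that glucocorticoids and other acute signals are known to induce, 1 passed with time as a factor. It was higher at night, as were 7 of all 7270 genes that passed this fit. klf9, which encodes a zinc finger factor induced by glucocorticoids, had 657, 919 and 1788 at night and 139.9, 259 and 709.5 in the day. A day array, CT10 of the first cycle at 709.5, exceeded only the CT22 night array of the second cycle. The difference of 1.78 passed with time as a factor (standard error 0.23, adjusted p = 0.020 from limma), a 3.43-fold higher level at night, and failed in 6 of the 12 fits without 1 array. fkbp5, which encodes a co-chaperone of the glucocorticoid receptor, had 732, 973 and 1245 at night and 119, 362 and 761 in the day. Its difference was 1.42 (adjusted p = 0.44 from limma, 0.11 with time as a factor). Its lowest value was that of the CT6 array of the second cycle. Without that array the difference was 1.1 and passed with time as a factor (adjusted p = 0.047 from limma). With each array left out in turn, that adjusted p ran from 0.0084 to 0.42. jun, a subunit of the AP-1 factor, had no overlap, with 199, 247 and 588 at night and 159, 185 and 198 in the day (difference 0.61, adjusted p = 0.85 from limma), while a dimmer probe set of the gene differed by 0.0093. Without the CT18 array of the first cycle the difference of the brighter one was 0.40. Of 37 tested genes of the list of immediate early and glucocorticoid genes, 30 had positive differences, against 49.4% of the 7270 genes. Of the list, 4 were higher and 0 lower at an unadjusted p under 0.05, against 218 and 200 of the 7270, and its median was 0.20 against -0.002. That median was 0.56 in the first cycle and 0.02 in the second.

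All 9 opsin genes tested had lower means at night. With time as a factor 1 of them passed, against 7 higher and 2 lower of all 7270 genes, and none passed the 2-group fit. The red-sensitive cone opsin gene opn1lw1 had 1183, 1592 and 4374 at night and 3376, 6400.2 and 8542 in the day. At night the CT14 arrays, at 4374 and 4045, were the brightest and overlapped CT2 and CT6 of the second cycle, and the CT18 and CT22 arrays were below all day arrays. The difference of -1.49 passed with time as a factor (standard error 0.23, adjusted p = 0.036 from limma), a 2.80-fold lower level at night, and failed in 9 of the 12 fits without 1 array. opn1sw2, a blue cone opsin gene, had 76.2, 99.5 and 151 at night and 139, 199 and 227 in the day (difference -0.83, standard error 0.20, adjusted p = 0.50 from limma). A green cone opsin gene, opn1mw1, was dim throughout, and its difference of -0.87 had a standard error of 0.52. exorh, an opsin gene of the pineal gland, had 695, 889.7 and 2203 at night and 757, 1238 and 1393 in the day, a difference of -0.17 with a standard error of 0.25 and a range of -0.39 without CT22 of the second cycle to -0.062 without CT18 of the second cycle. The differences of the 9 genes ran from -1.49 to -0.05 with a median of -0.32, and 2 had an unadjusted p under 0.05. Among all 7270 genes, 49.4% had positive differences, and 218 were higher and 200 lower at that p. In pooled tissue such as this, fewer cells of a type and less RNA per cell cannot be told apart. Downstream of the opsins, of 27 phototransduction genes tested, 0 were higher and 1 lower at an unadjusted p under 0.05, with a median of -0.06. That gene was gnb1b, a G protein beta subunit, with 5165, 6163 and 7628 at night and 5668, 8339.8 and 9221 in the day (difference -0.30). A second probe set that the study's list alone names gnb1b had no overlap, with 1708, 2530.3 and 2933 at night and 3189, 4026 and 4640.3 in the day (difference -0.69, adjusted p = 0.40 from limma). rgs9a, which speeds the shut-off of transducin, had 0.67, and 0.28 without the CT6 array of the second cycle.

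Of 21 tested genes of the visual cycle and retinoids, 1 had night arrays that were all above the day arrays, as did 13 of all 7270 genes. rpe65a encodes the isomerase that regenerates the chromophore of opsins. On its brighter probe set it had 3168, 5051 and 7979 at night and 699, 2211 and 2933 in the day, and on the other 149.6, 219 and 337 and 55.6, 111 and 146, so that the groups did not overlap on either. The differences were 1.46 and 1.06 (adjusted p = 0.30 and 0.44 from limma, 0.085 and 0.27 with time as a factor). The dimmest day array on both was CT6 of the second cycle, on which pineal markers were low. Without it the brighter probe set differed by 1.15, still without overlap, and passed with time as a factor (adjusted p = 0.026 from limma). With each array left out in turn, that adjusted p ran from 0.0037 to 0.33. cyp27c1, which makes the red-shifted form of the chromophore, had 153, 812 and 2337 at night and 73.1, 222 and 411 in the day (difference 1.54, adjusted p = 0.85 from limma). Its highest time was CT18 and its 2 CT14 arrays lay within the day range. Lower at night were crabp2b, which binds retinoic acid, with 16.0, 38.3 and 76.6 against 48.0, 86.6 and 193, and bco1, which cleaves carotenoids, with 95.3, 122 and 184 against 137, 210.3 and 260.2. Their differences of -1.21 and -0.61 did not pass (adjusted p = 0.79 and 0.84 from limma). Of 21 genes of this list, 15 had positive differences, 2 were higher and 2 lower at an unadjusted p under 0.05, and the median was 0.12. Among all 7270 genes, 49.4% had positive differences, and 218 were higher and 200 lower at that p.

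aanat2 encodes the enzyme whose nightly rise makes melatonin synthesis rhythmic. It had 388, 1927 and 2658 on the night arrays and 285, 598 and 2001 on the day arrays. The CT22 night array of the first cycle, at 388, was below 5 of the 6 day arrays, and the CT10 arrays, at 2001 and 1293, were the highest of the day, so that the groups overlapped. The difference of 1.11 did not pass (standard error 0.49, unadjusted p = 0.038, adjusted p = 0.85 from limma; 0.49 with time as a factor). In the first cycle it was 0.41 and in the second 1.81. The tryptophan hydroxylase genes, for the first step from tryptophan to serotonin, differed by 0.57 for tph1a and 0.15 for tph2, and the decarboxylase gene ddc by 0.24, with standard errors of 0.38, 0.18 and 0.20. All 3 were lowest at CT6, and without the CT6 array of the second cycle the differences were 0.23, -0.022 and 0.11. Of 12 tested genes of melatonin and serotonin, 1 was higher at night at an unadjusted p under 0.05, as were 218 of all 7270 genes. Values of transcription factor genes of the gland depended on that array as well. noto had 265, 333 and 438 at night and 74.6, 229 and 376 in the day (difference 0.71, and 0.42 without CT6 of the second cycle). nr2e3 differed by 0.70 and isl1a by 0.36, and by 0.41 and 0.14 without it. The median over the 14 tested genes of this list went from 0.16 to 0.02.

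Among transporters and metabolic enzymes, slc38a4, which encodes a carrier of neutral amino acids, had 174, 319 and 587 at night and 84.4, 109 and 199 in the day. The day arrays lay close together except CT2 of the second cycle at 199, which alone reached the night range. The difference of 1.45 passed with time as a factor (standard error 0.20, adjusted p = 0.021 from limma) and failed in 7 of the 12 fits without 1 array. slc25a43, of the family of mitochondrial carriers, had 127, 160.4 and 178 and 80.5, 98 and 105 with no overlap (difference 0.71, adjusted p = 0.27 from limma). slc25a33, a mitochondrial carrier of pyrimidine nucleotides, had 649, 948 and 1507 and 324, 606 and 774 (difference 0.85, adjusted p = 0.50). Of 107 solute carrier genes, 7 were higher and 4 lower at an unadjusted p under 0.05, with a median of 0.07. Over all 7270 genes, 218 were higher and 200 lower at that p. prodh, the proline dehydrogenase gene, named by the study's list only, had 774, 2120.2 and 2969 at night and 603, 807 and 1314 in the day. Its difference of 0.96 passed with time as a factor (adjusted p = 0.021 from limma) and failed in 9 of the 12 fits without 1 array.

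Lower at night without overlap were 2 of 49 tested genes of amino acid and one-carbon metabolism, and 13 of all 7270 genes. odc1, the ornithine decarboxylase gene that opens polyamine synthesis, had 25.4, 74.3 and 83.9 at night and 96.9, 156 and 183 in the day (difference -1.21, standard error 0.29, adjusted p = 0.50 from limma). psat1, of serine synthesis, had 101, 134 and 149.8 and 158, 197 and 253 (difference -0.62, adjusted p = 0.50). arg2, an arginase gene, went the other way, with 84.8, 187 and 374 at night and 66.4, 87.1 and 146 in the day (difference 1.07, adjusted p = 0.79). Of 49 genes of amino acid and one-carbon metabolism, 7 were higher and 2 lower at an unadjusted p under 0.05, with a median of 0.03. For this list and the 2 that follow, the counts over all 7270 genes were 218 higher and 200 lower at that p. In glycolysis, pfkfb4b, whose product sets the level of an activator of phosphofructokinase, had 914, 1466 and 2011 at night and 436, 615 and 1143 in the day (difference 1.08, adjusted p = 0.50), and pdhb, of pyruvate dehydrogenase, differed by 0.29. Of 42 genes, 3 were higher and 1 lower, with a median of 0.05. In lipid synthesis 4 of 43 genes were higher and 0 lower, with a median of -0.05. Among them was the desaturase gene fads2, with 65.3, 139.8 and 156 at night and 14.3, 63.4 and 102 in the day. Its difference was 1.17, and 0.80 without the CT6 array of the second cycle. Also among them were insig1, a regulator of sterol synthesis (0.62), and mid1ip1l, a regulator of fatty acid synthesis (0.63). None of these passed (adjusted p = 0.85, 0.85 and 0.85 from limma).

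A few further genes of different functions had night arrays that were all above the day arrays. pik3r3a, a regulatory subunit of phosphoinositide kinase, had 278, 395 and 446 at night and 152, 185 and 262 in the day, with no overlap (difference 0.95, standard error 0.18, adjusted p = 0.17 from limma, 0.11 with time as a factor). rapgef5, an exchange factor for Rap GTPases named by the study's list only, was dim, with 33.3, 53.8 and 84.1 at night and 6.06, 15.8 and 26.1 in the day (difference 2.11, adjusted p = 0.28). The F-box gene fbxo25, which encodes a subunit of ubiquitin ligases, had 244, 379 and 455 at night and 158, 195 and 216 in the day. All night arrays were above all day arrays, and its difference of 0.92 passed with time as a factor (standard error 0.14, adjusted p = 0.036 from limma), and failed in 10 of the 12 fits without 1 array, and a dimmer probe set of the gene differed by 0.26. tob1b, of a family that slows cell growth, had 489, 578 and 794 and 287, 322 and 487 with no overlap (difference 0.81, adjusted p = 0.37), and 0.88 on another probe set. Next to it in the cell cycle list was rgcc, with 223, 373 and 705 at night and 152, 204 and 322 in the day (difference 0.83, adjusted p = 0.84).

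sh3gl2a, which encodes an endophilin of synaptic vesicle recycling, had 638, 1581 and 1768 at night and 326, 629.7 and 1310.2 in the day. The groups overlapped through the CT14 night arrays, which were below both CT2 arrays. Its difference of 1.04 passed with time as a factor (standard error 0.15, adjusted p = 0.021 from limma) and failed in 9 of the 12 fits without 1 array. rims2a, a protein of the site of vesicle release, had 462, 623 and 1189 and 306, 395 and 637 (difference 0.79, adjusted p = 0.79), and ap2b1, a subunit of the clathrin adaptor, had 502, 593 and 709 and 406, 468 and 509 (difference 0.36, adjusted p = 0.85). Of 162 genes of vesicle traffic and synaptic release tested, 10 were higher and 2 lower at an unadjusted p under 0.05, with a median of 0.04. Over all 7270 genes, 218 were higher and 200 lower at that p. Of the 16 brain neuron markers tested, 3 were higher at that p and 12 had positive differences. The vesicle gene syt1a was among the 3, so that the lists are not separate. Relative to all 12 arrays, which makes the values opposite, their mean was 0.18 at night and -0.18 in the day. Without CT6 of the second cycle the day mean was -0.10. First-cycle arrays ran from 0.12 to 0.23 at night and -0.51 to -0.40 in the day. In the second cycle they ran from -0.68 to 0.86 and -0.60 to 0.68. The part of neurons in the vesicle list was not tested.

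**Figure D3:**
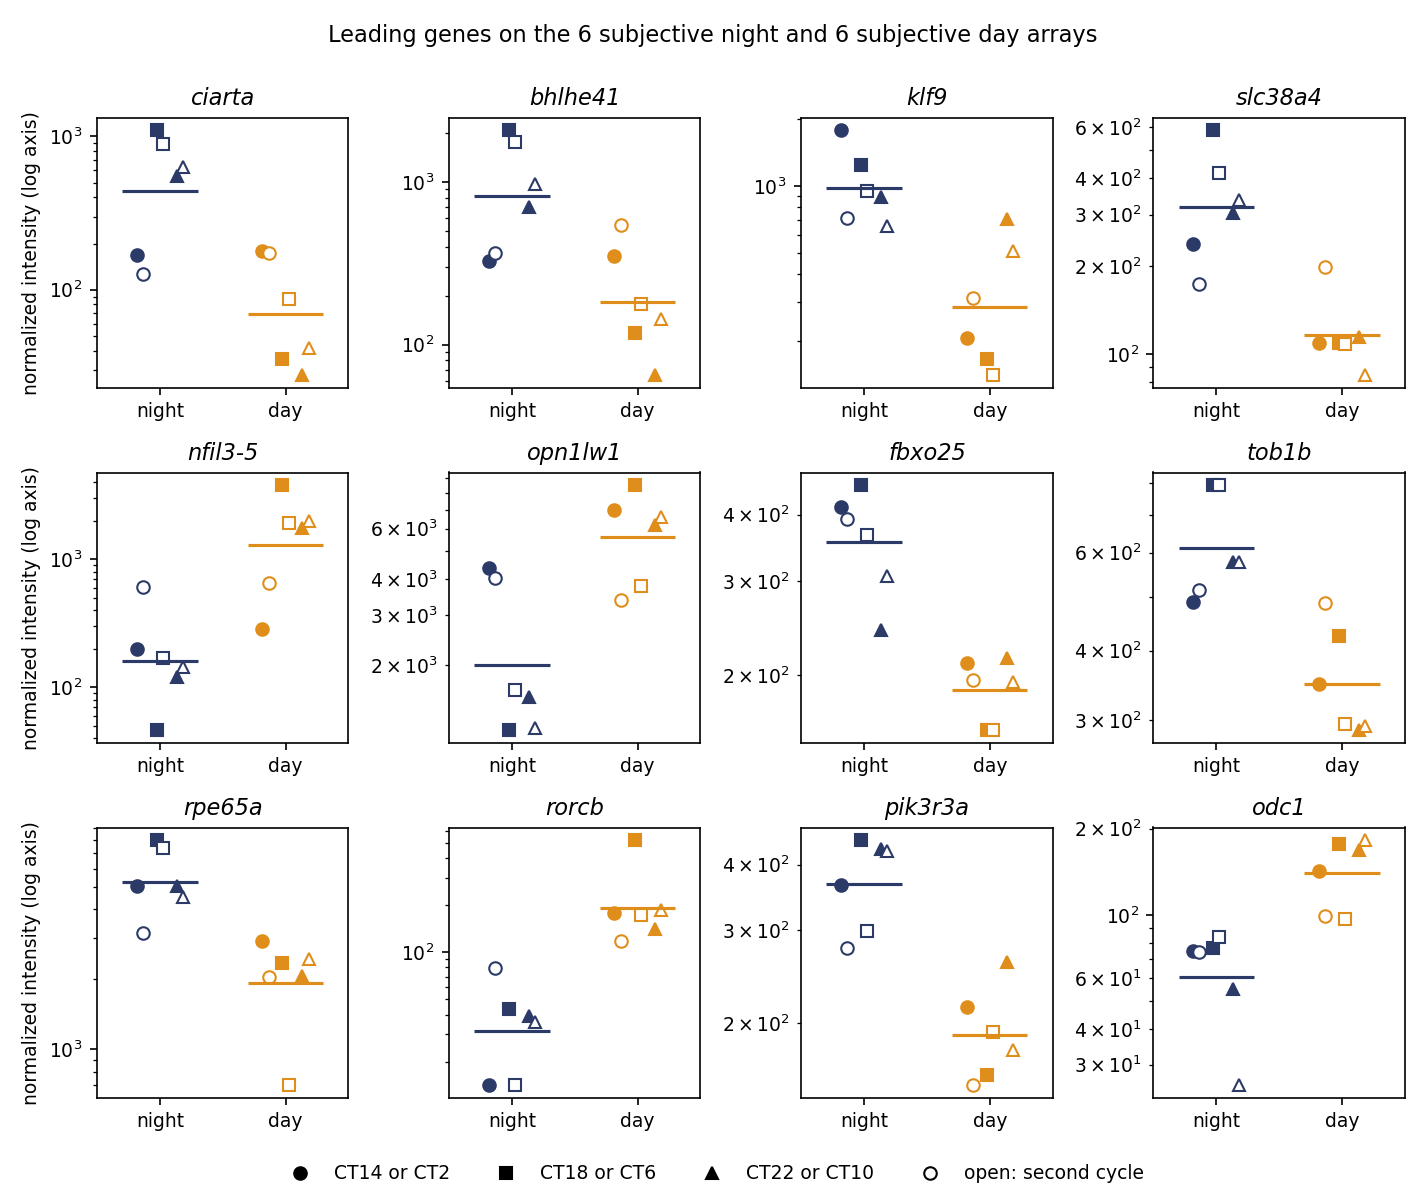
Normalized intensities of 12 genes on the night arrays (blue) and day arrays (orange), on log axes that differ between panels. Symbols mark the time within night or day, open symbols the second cycle, and lines the geometric means of 6 arrays. For fbxo25, tob1b, rpe65a, rorcb, pik3r3a and odc1 the groups did not overlap. For ciarta, bhlhe41, slc38a4, nfil3-5, klf9 and opn1lw1 a few arrays did.

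Cytosolic ribosomal protein genes mostly had lower means at night, as did the genes of RNA binding described here. taf15 and ewsr1b belong to 1 family of RNA-binding proteins. taf15 had 215, 291 and 324 at night and 381, 402 and 477 in the day, with no overlap (difference -0.58, standard error 0.14), and ewsr1b 472, 683 and 904 and 869.9, 1096 and 1130.5 (difference -0.63, standard error 0.16; adjusted p = 0.50 and 0.50 from limma). The splicing factor gene sf3b4 had 174, 233 and 256 and 236, 354 and 469 (difference -0.64, adjusted p = 0.50). Of 139 splicing and RNA-binding genes, 0 were higher and 3 lower at an unadjusted p under 0.05, and the median was -0.06. Over all 7270 genes, 218 were higher and 200 lower at that p, with a median of -0.002. The list's share of genes lower at that p was thus not above that of all genes. Positive differences were found in 51 of the 139 (36.7%), against 49.4% of all genes. Of 73 cytosolic ribosomal protein genes, 10 had positive differences, against 49.4% of all genes. In this list 1 was higher and 8 lower at that p, and the median was -0.15. rpl6 had 478, 533 and 589.9 at night and 556, 703 and 928 in the day (difference -0.42), rpl8 5195, 6409.9 and 10649 and 7847, 9618 and 9897 (-0.42) and rpl31 1177, 1357 and 2606 and 1595, 2122 and 2513 (-0.48; adjusted p = 0.79, 0.85 and 0.85 from limma). The list's median was 0.01 in the first cycle and -0.28 in the second, -0.06 without the CT6 array of the second cycle and -0.22 without further normalization.

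Most other genes whose night and day arrays did not overlap had small differences. Lower at night were nrf1, a factor of mitochondrial genes (109 to 167 at night, 169.9 to 246 in the day, difference -0.48), the kinase gene sik3 (51.9 to 82.3, 86.6 to 132, -0.69), whose other probe set did not overlap either and differed by -0.59, and the ubiquitin ligase gene rnf130 (242 to 357, 379 to 507, -0.52). hsp90aa1.1, a cytosolic chaperone gene, had 19 to 57.8 at night and 64.6 to 111 in the day, a difference of -0.80. In pa2g4b, a growth regulator, the groups were free of overlap with a difference of only -0.17. Higher at night were timm17a, of protein import into mitochondria (568 to 826, 398 to 556, 0.53), tmpoa, of the nuclear lamina (81.7 to 112, 16.3 to 76.3, 1.2), and the exchange factor gene rasgef1ba (505 to 805, 363 to 498, 0.50). angptl7, a secreted factor, differed by 0.97 and zpr1, a zinc finger gene, by 0.56. Dimmer probe sets of rnf130 and tmpoa overlapped and differed by 0.47 and -0.084. None of these passed limma, with adjusted p of 0.50 or more. taf7, ubtd2, spsb4b and eif3eb were free of overlap with differences of -0.33, -0.32, -0.30 and -0.20, and cyp3c1, of the cytochrome P450 family, with 0.22. In arhgap21b, eif2ak3, tmcc3 and tmem192 this held for a probe set that was not the brightest of its gene. A chaperone gene with overlap but a larger difference was hspa4l, of the heat shock protein family, with 1386, 2474 and 2959.7 at night and 315, 1019.96 and 2087 in the day (difference 1.25, and 0.92 without the CT6 array of the second cycle, adjusted p = 0.60 from limma).

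Over the 28 gene lists, medians of the night minus day difference ran from -0.32 for opsins to 0.24 for calcium and cAMP signalling, of which 18 of 22 genes had positive differences and 1 was higher at an unadjusted p under 0.05. Among all 7270 genes, 49.4% had positive differences, and 218 were higher and 200 lower at that p. Cytosolic ribosomal proteins, at -0.15, and immediate early genes, at 0.20, came next, although the first of these lay in the second cycle (-0.28 against 0.01 in the first) and the second in the first cycle (0.56 against 0.02 in the second). Oxidative phosphorylation, with 87 genes and a median of -0.01, and the proteasome, with 40 genes and -0.02, were near the median of all genes, which was -0.002 with quartiles of -0.17 and 0.18. Core clock and accessory loop genes had medians near 0, at -0.04 and 0.03, but wide quartiles, since they hold genes that went in both directions. A further list held genes that had been picked as circadian on these arrays and by sequencing. Of its 25 tested genes, 12 were higher and 4 lower at night at an unadjusted p under 0.05, and, as the list was drawn in part from these arrays, this is not independent evidence.

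**Figure D4:**
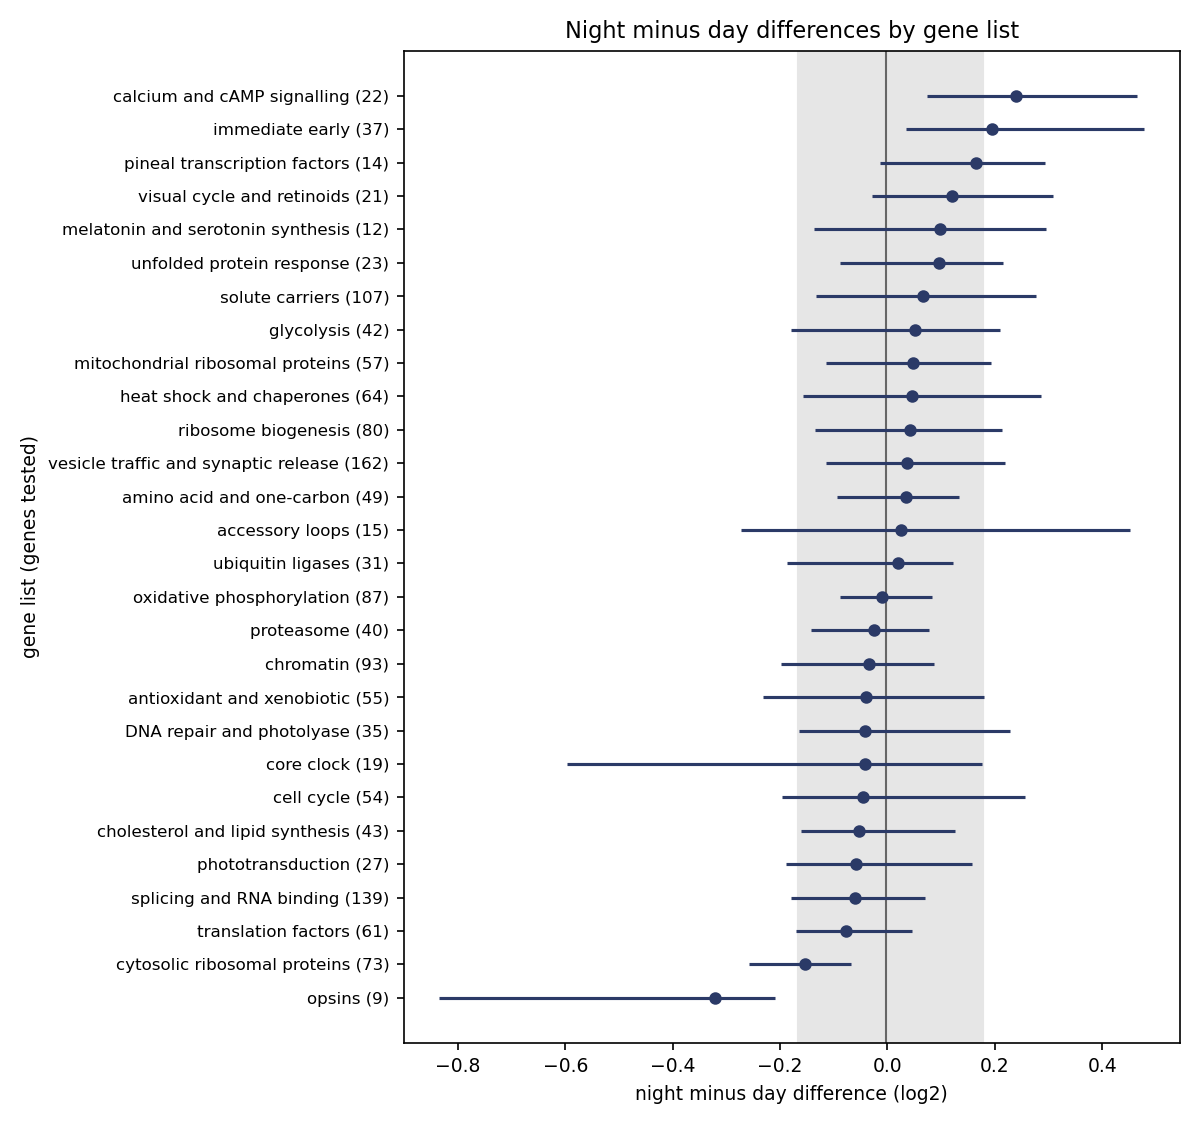
Median (point) and quartiles (line) of the night minus day difference of the genes of 28 lists, with the number of genes tested in brackets. The grey band and line are the quartiles, -0.17 and 0.18, and the median of all 7270 genes. Opsins lay lowest at -0.32 and calcium and cAMP signalling highest at 0.24, and the core clock and accessory loops had medians near 0 with wide quartiles.

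The contrast of night with day caught some transcripts and passed over others that moved as much. The mean of the 2 arrays of a time spanned more than 2 log2 units over the 6 times in 842 probe sets, and in 369 of these night and day differed by less than 0.5. Of the 842, 316 were highest at CT6, the time of the array with high skin markers, whose part in that number was not tested. Among all 11625 tested probe sets, 10193 differed by less than 0.5 and 2240 were highest at CT6. Of the probe sets past the test with time as a factor, 6 of the 11 that were higher at night had their highest mean at CT18, 3 at CT22 and 2 at CT14, and 4 of the 5 that were lower had it at CT10. Probe sets without overlap were highest at CT18 in 12 of the 20 higher at night, and at CT2 in 8, CT6 in 7 and CT10 in 6 of the 21 lower. camk1gb, a calcium-dependent kinase gene named on the array by the study's list only, spanned 324 at CT14 to 2065 at CT2 in its time means, and night and day differed by -0.76 (unadjusted p = 0.12 from limma).

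The night minus day differences were also taken within each daily cycle. In the second, all day arrays but only the CT22 night array had the brighter hybridization controls, whose part was not tested. Across the 11625 probe sets the night minus day difference of the first cycle correlated with that of the second with r = -0.0858, and 48.4% had the same sign in both, where probe sets are not independent of each other. All 16 probe sets past the test with time as a factor had the same sign in both, which their choice makes likely, and freedom from overlap fixes the sign in each cycle. The difference was 3.07 in the first cycle and 2.29 in the second for ciarta, 2.49 and 1.84 for bhlhe41, -3.58 and -2.46 for nfil3-5, 2.11 and 1.45 for klf9 and 1.28 and 1.64 for rpe65a. In 13 of the 16 it was larger in the first cycle. Among all 11625 probe sets, night and day arrays were free of overlap within the first cycle in 2068 and within the second in 1073. With only 3 night and 3 day arrays in a cycle, exchange of arrays alone leaves many probe sets free of overlap, far more than with all 12. These counts are thus no measure of how many genes separate night from day. No probe set passed the interaction term of limma, which tests whether the night minus day difference differed between the cycles. The lowest adjusted p was 0.777, and 709 probe sets had an unadjusted p under 0.05. The 5 genes with the lowest p were sost, which encodes a secreted inhibitor of bone growth (-0.92 in the first cycle, 1.15 in the second, unadjusted p = 0.00056), the muscle creatine kinase gene ckma (1.90, -0.33, 0.00064), sb:cb81 (-1.93, 0.29, 0.00075), the amylase gene amy2al1 (-0.51, 1.04, 0.0011) and tbc1d23 (0.47, -0.85, 0.0013). Of the skeletal muscle markers, 16 were tested, ckma among them. In the first cycle their mean log2 level, relative to its mean over the 12 arrays, was 0.85, 0.18 and 0.53 on the night arrays of CT14, CT18 and CT22 and -0.18, 0.0031 and -0.53 on the day arrays of CT2, CT6 and CT10. In the second it was -0.40, 0.015 and -0.29 at night and 0.24, -0.19 and -0.24 in the day. Over both cycles 12 of the 16 had positive differences, with a median of 0.39 and none at an unadjusted p under 0.05, and the part of muscle in these values was not tested.

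**Figure D5:**
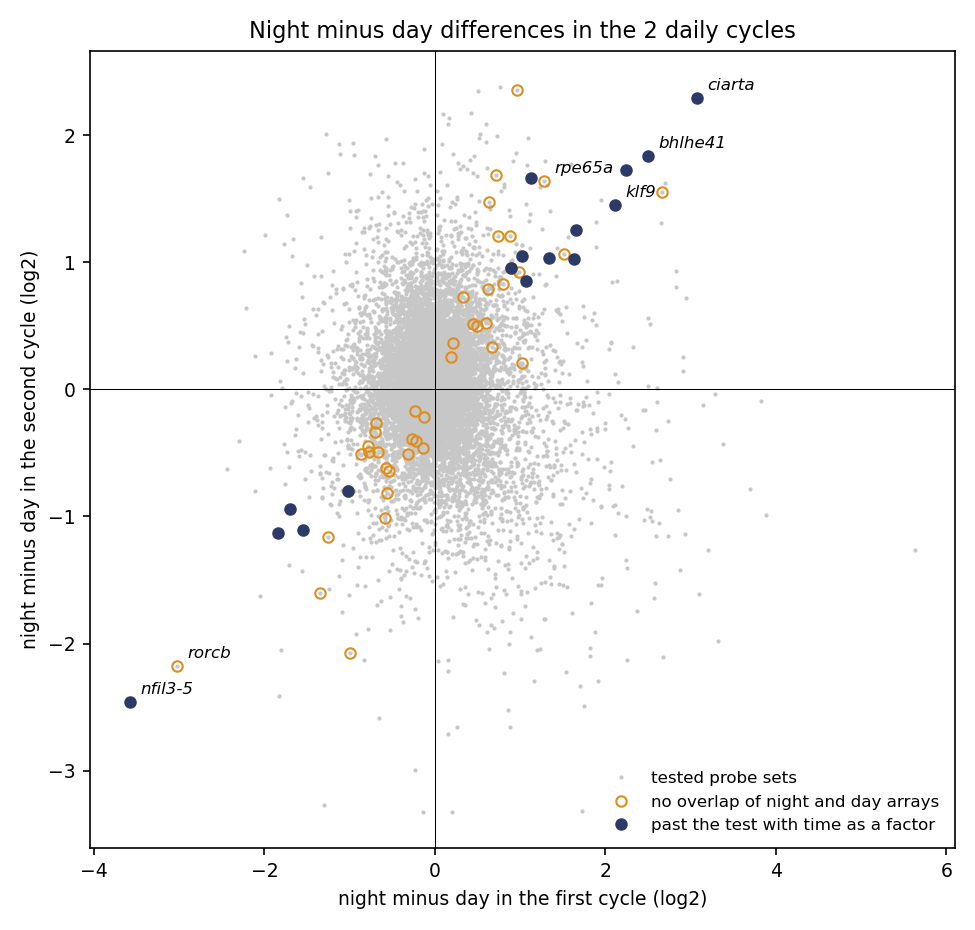
Night minus day difference in the first daily cycle (x axis) and in the second (y axis), both log2, for the 11625 tested probe sets. Filled points are the probe sets past the test with time as a factor and open circles those whose night and day arrays did not overlap. ciarta lies at 3.07 and 2.29 and nfil3-5 at -3.58 and -2.46, while the cloud as a whole has r = -0.0858.

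These values follow the deposited labels, and the direction of some depended on them. With 4 h added to every label, which would make the CT22 arrays day and the CT10 arrays night, 7 of the 16 probe sets past the test turned to the other side, 6 kept their direction with a difference more than 1.5 times smaller, and 3 stayed within 1.5 times. klf9 then differed by 1.55 and fbxo25 by 0.65. Among those 6, bhlhe41 went to 0.097 and opn1lw1 to -0.0039, so that little or nothing of their differences was left. dbpa went to 0.49, slc38a4 to 0.32 and nfil3-5 to -0.48. Of those that turned, ciarta differed by -0.074, nr1d2b by -0.20, sh3gl2a by -0.49, prodh by -0.39 and cry2a by 0.40. aanat2 went from 1.11 to 1.78. Only 1 probe set was then higher and 1 lower with time as a factor.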

How the data were processed

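Each of 12 Affymetrix zebrafish arrays measured 1 pool of 12 pineal glands. The intensity table that the authors deposited holds linear signal values of 15502 probe sets and 115 controls. They were made with GCOS, which scales array by array, and the submitters' processing notes also name MAS5, with no version given. Values scaled in this way can still differ between arrays in their distribution, with deposited medians of 71.0 to 95.4. Samples were grouped by the labelled circadian time. The labels do not say that pools came from separate fish tanks or experiments, so p-values measure the spread between these pools.

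Controls were left out, and values were transformed to log2 and quantile-normalized (limma 3.58.1, R 4.3.3). Those with a maximum in the bottom 25% of values were dropped. Night was compared with day by lmFit and eBayes with variance trend on 12 arrays (10 residual degrees of freedom), and with circadian time as a factor (6 residual degrees of freedom), with Benjamini-Hochberg adjustment over all tested probe sets. Intensities in the text are quantile-normalized, and differences are night minus day on the log2 scale. Fold changes of dim probe sets are the least certain. Of all probe sets, 10795 had 1 gene symbol in the platform annotation, 135 several and 4572 none, and 10711 were found by gene ID in the RefSeq table. A gene was represented by its brightest probe set. Summaries were made with Python 3.11.15 and pandas 2.3.3.

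Named genes were, of each gene list, up to 3 members with the lowest p, all members past the test, the 15 largest differences in each direction among probe sets past the test, and the 5 genes with the lowest p of the interaction with the cycle. Further genes were added with their values in view. Members, gene lists and tests were chosen with earlier results of these data known. The labelled times were kept, although camk1gb was highest at CT2 on them, 1 sampling interval earlier than in the curve of the study. Against the study's sequencing peaks, the same lead was seen in some further genes but not in all that were compared. cry2, its cry3, and bhlhe40 were highest at CT18 here and at CT22 there, and cry2a at CT10 and CT14. nfil3-6 was highest at CT22 here and at CT6 there, which is not a lead of 1 interval. Genes beyond these were not compared in this way. The 2-group fit, the fit with time as a factor and the overlap counts were recomputed with 4 h added. List medians, marker levels and differences within each cycle were not. The fits were also run on simulated data that held no changes within night or within day. They were thus not tested under such changes, which these arrays have. Promoter motifs were not run, since no sequences were used here.

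The numbers shared by night and day arrays stand for the daily cycle. Deviations of the cycles correlated across probe sets with r of -0.196 to 0.146 over 15 pairs of times, and 2 of these were above 0.1, so that the cycle did not pair the arrays and the fits had no block. Alternatives were no further normalization, median centring, no filter or one at 50%, an offset of 32, no variance trend, array weights, a false discovery rate of 0.10, the cycle as a block, each array left out, the last 4 arrays left out and 4 h added to the labels. Leaving out CT6 of the second cycle for counts was chosen after seeing the data.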

Additional observations from a re-analysis of the deposited data

Results flagged for a closer look

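For 89 genes of the report the 6 night arrays and the 6 day arrays were searched for 1 array far from the other 5, by the ratio of its gap to the whole range. Of the 178 groups, 20 had such an array. The limit set for that ratio is passed by about 1 in 20 groups of 6 repeats of 1 condition with normal spread. Each group here holds 3 times and the genes were chosen with values in view, so that rate does not apply. The array of CT22 in the second cycle accounted for 5 of the 20 and that of CT6 in the second cycle for 4.

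On the night array of CT22 in the second cycle, npas2, a partner of BMAL proteins, had its highest normalized night intensity at 167, with the next array at 74.7. The homeobox factor gene isl1a stood at 3702 there (next 2575), exorh at 2203 (next 994) and rpl31 at 2606 (next 1520). odc1 was lowest there, at 25.4, with the next array at 55.2. On the day array of CT6 in the second cycle, where the pineal markers averaged -0.74 and the skin markers 2.34, 4 genes were lowest of the day. tph2 was at 2624 (next 5082), isl1a at 960.2 (next 2087), rgs9a at 25.7 (next 94.2) and rpe65a at 699 (next 2053).

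Among clock genes, bmal1a was low on the day array of CT2 in the second cycle, at 43.7 against 117 for the next. bmal2 was low at night on CT18 of the second cycle, at 4.90 against 21.5, and clocka on CT18 of the first, at 14.1 against 48.7. rorcb was high in the day on CT6 of the first cycle, at 524 against 186. aanat2 was low at night on CT22 of the first cycle, at 388 against 1663.

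Of the other genes, slc38a4 was high in the day on CT2 of the second cycle, at 199 against 114. hsp90aa1.1 was low at night on CT18 of the second cycle, at 19.02 against 49.1, and tmpoa on CT14 of the second cycle, at 81.7 against 102. zpr1 was high at night on CT22 of the first cycle, at 98.8 against 78.5. On the day array of CT2 in the first cycle, taf15 was at 477 against 403 and rnf130 at 507 against 421.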

How the results depend on the processing

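The comparison of 6 night with 6 day arrays called 0 probe sets in each direction under all normalizations, filters and weights that were run, with the cycle as a block, and with any 1 array left out. The exceptions were circadian time as a factor, with 11 higher and 5 lower, and the fit without the last 4 arrays, with 37 higher and 5 lower, which left 5 night and 3 day arrays, the day arrays all from the first cycle. With time as a factor, 3 were higher and 0 lower without the variance trend, 8 were lower without further normalization, 2 with median centring, 9 at a false discovery rate of 0.10 and 12 without CT6 of the second cycle, and 1 was higher and 1 lower with 4 h added. Leaving out 1 array gave 3 to 26 higher, the most without CT6 of the first cycle, and 0 to 12 lower. The probe sets without overlap went from 41 to 76 with 4 h added, 88 without CT6 of the second cycle, 1094 without the last 4 arrays and 53 to 128 with 1 array left out, the most without CT22 of the second cycle, where fewer arrays can overlap less often. With the daily cycle as a replicate block, 0 were called in 2 groups and 12 higher and 5 lower with time as a factor. Each cycle held as many night as day arrays, so that this block could not change the direction of any gene. The interaction with the cycle called 0 under each alternative run.

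Of the 89 genes examined under 25 settings each, directions turned for 21 with 4 h added to the labels, to -0.074 for ciarta, -0.68 for per2, 0.21 for cry1a, -0.87 for cry1b, -0.23 for clockb, -0.28 for npas2, 0.16 for fbxl3a, -0.29 for csnk1db, -1.07 for nfil3-6, -2.08 for bhlhe40, -0.20 for nr1d2b, 0.085 for id2b, 0.050 for gnb1b, -0.22 for cyp27c1, -0.49 for sh3gl2a, 0.28 for odc1, -0.12 for arg2, -0.19 for mid1ip1l, -0.24 for sost, -0.39 for prodh and 0.40 for cry2a. Without the last 4 arrays 12 turned, to -0.14 for per2, -0.032 for cry1b, -0.32 for clockb, -0.30 for npas2, -0.25 for nfil3-6, -0.019 for tph1a, -0.049 for tph2, -0.13 for ddc, -0.014 for isl1a, -0.69 for sost, -0.42 for amy2al1 and 0.26 for tbc1d23. Array weights turned 7, to -0.0092 for per2, -0.024 for clockb, -0.13 for npas2, -0.019 for nfil3-6, -0.25 for sost, -0.0028 for amy2al1 and 0.075 for tbc1d23. Without further normalization cry1b went to -0.081, npas2 to -0.077 and sost to -0.00032, and without CT6 of the second cycle npas2 went to -0.021 and tph2 to -0.022. With 1 array left out the differences that turned ranged from -0.052 to 0.25 for clockb, -0.26 to 0.026 for cry1a, -0.19 to 0.28 for cry1b, -0.072 to 0.45 for nfil3-6, -0.16 to 0.20 for npas2, -0.047 to 0.21 for per2, -0.15 to 0.30 for sost and -0.022 to 0.22 for tph2. The cause of these changes was not tested. Array weights were not run with time as a factor, the fit with time as a factor was not run without the last 4 arrays, and promoter motifs were not run. The 2 arrays of each time limit the precision, and dim probe sets could not be set against their background.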

Other observations

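Without the last 4 arrays, 42 probe sets passed the 2-group limma fit, 37 higher and 5 lower at night. None of them was among the 16 past the test with time as a factor and 2 were among the 41 without overlap. Genes of brain neurons stood among the higher ones. gad1b and gad2, which encode the enzymes that make the transmitter GABA, had 51.6 to 1585 and 5.25 to 541 on the 6 night arrays, 48.6 to 1005 and 6.83 to 232 on the 6 day arrays. Their day arrays of the first cycle were at most 105 and 43.9, and CT2 of the second cycle was at 1005 and 232. slc32a1, the vesicular carrier of GABA, had 19.3 to 353 and 9.29 to 315, and the vesicle fusion gene snap25a 652 to 4400.2 and 398 to 3840.2. The neuron markers as a list averaged 0.12 to 0.23 on the night arrays of the first cycle and -0.51 to -0.40 on its day arrays, and -0.68 to 0.86 and -0.60 to 0.68 on the night and day arrays of the second. Whether these values reflect brain tissue in the pools was not tested.

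The control probe set for EGFP, the transgene that aanat2's promoter drives, had deposited intensities of 27.4, 36.1, 77.1, 23.8, 32.4 and 148 on the night arrays and 145, 83.7, 121, 35.3, 47.8 and 51.0 on the day arrays. Over each array's median, night minus day was -0.55 on the log2 scale (two-sided exact permutation test over 924 splits, p = 0.29, n = 6 and 6). The probe set was dim, at 0.34 to 1.82 times the array median, and could not be set against its background. This test takes all arrays as exchangeable, although those of a group were samples of different times.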
